A study of Mus musculus with 4 samples.

Results

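The genes described here encode the proteins of the cytosolic ribosome. Members were taken by name, as every symbol that begins with Rpl or Rps followed by a digit, leaving out the Rps6k kinases, pseudogene names with -ps, and the -like genes Rpl7l1 and Rpl22l1 (Rpl3 ends in l3 but is no -like gene and was kept). That gave 84 of the 24971 genes in the count tables, 49 named Rpl and 35 named Rps. Of these, 73 are core proteins of the ribosome (43 of the large subunit and 30 of the small subunit). The other 11 are paralogues, retrogene copies (Rpl10l, Rpl32l, Rpl36al, Rpl37rt, Rpl39l, Rpl3l, Rps23rg1, Rps27l, Rps27rt and Rps4l) and Rps19bp1, a protein that binds RPS19 and is not part of the ribosome.

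RNA came from neural tubes of C57BL/6 mouse embryos at E12.5, and the groups were WT, with 2 libraries, and Lbx1Δ/Δ, also with 2. For each library the tubes of littermates with the same genotype had been combined, and the libraries of a group are numbered 1 and 2. The labels do not say whether equal numbers share a litter or a preparation, nor which part of Lbx1 was deleted. Totals were 20579803 and 16948717 counts in WT libraries 1 and 2, and 17250143 and 16853984 in Lbx1Δ/Δ libraries 1 and 2. Lbx1, the targeted homeobox gene, had 819 and 1379 counts in the WT libraries, but 1946 and 6520 in those labelled Lbx1Δ/Δ. This goes against the label, or checks nothing if the counted part lies outside the deletion, so each direction below is between libraries as labelled. Levels are CPM, the count scaled to a library total of 1000000, and SD is over n = 2 libraries.

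A ribosome joins a small subunit, which decodes the mRNA, and a large subunit, which forms the peptide bond, and each holds ribosomal RNA and many proteins made in near-equal numbers. The mRNAs of these proteins begin with a 5′ terminal oligopyrimidine tract (TOP), a run of C and T bases through which the mTORC1 pathway and the protein LARP1 control their translation. In mouse embryos, reduced doses of single ribosomal proteins are known to alter the tail, the axial skeleton and pigment, and loss of a copy of several of their human counterparts causes Diamond-Blackfan anemia.

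The start of transcription of 8 core members is shown because the pyrimidine run there is the sequence feature that these genes are best known to share. Each line gives the 15 bases before and the 15 bases from the annotated start, 5′ to 3′ on the gene's strand, from RefSeq promoters of build GRCm38.p6, with the longest run of C and T in that window in capitals. The first 6 had their run across the start, and the last 2 had no run longer than 2 bases there. They are chosen examples. Such a window was available for 38 core members with a mean of at least 1000 counts. Of these, 15 had a run of at least 8 bases in it, and only 8 had that run across the start.
Rpl7a (chr2:26910792-26910821, plus strand): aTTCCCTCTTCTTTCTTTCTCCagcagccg
Rpl27a (chr7:109519180-109519209, plus strand): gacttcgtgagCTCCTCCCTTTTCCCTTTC
Rpl35 (chr2:39005117-39005146, minus strand): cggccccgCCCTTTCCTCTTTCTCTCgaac
Rpl14 (chr9:120571502-120571531, plus strand): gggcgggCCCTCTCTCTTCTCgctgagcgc
Rps18 (chr17:33955651-33955680, minus strand): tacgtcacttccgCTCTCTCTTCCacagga
Rps6 (chr4:86857353-86857382, minus strand): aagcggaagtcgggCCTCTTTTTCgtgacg
Rps3a1 (chr3:86142654-86142683, minus strand): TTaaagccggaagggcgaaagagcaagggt
Rpl24 (chr16:55966260-55966289, plus strand): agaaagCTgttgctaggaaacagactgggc

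Promoters were listed for 64 of the 84 members, 54 of them core. A run of at least 8 pyrimidines within 20 bases before and 50 bases after the start was found in 51 of 76 promoters of the members (67.1%), against 25.4% of 32851 promoters of all genes. The run was found in 30 of the 38 promoters of those core members that were counted abundantly (78.9%). Its median greatest length was 10 bases in them and 6 bases over all promoters. The motif CTTTCC, searched on both strands of the 300 bases, was in 48.7% of the members' promoters and 26.6% of all, and can be part of a pyrimidine run. The motif ACTTCCGG, also on both strands, was in 14.5% and 3.89%, and TATAAA in 7.89% and 13.6%. These matches describe the listed windows, and annotated starts can lie away from the base at which transcription begins.

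Which members had a usable count went with the number of RefSeq accessions of the gene. Reads had been counted per accession, and genes with several stayed low after summing. Of the 55 core members with 1 accession, 54 had a mean of at least 1000 counts per library, and the lowest of those means was 4399. Of the 18 core members with several accessions, 0 reached 1000, and the highest mean level among them was 9.12 CPM. Over all genes, 21.0% of 17047 with 1 accession and 1.88% of 7924 with several reached that mean. The low group holds proteins that every ribosome contains, so their values are uncertain and are not read as levels of the mRNA.

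The 14 members with fewer than 10 counts in total were Rpl10l, Rpl15, Rpl22, Rpl26, Rpl31, Rpl32l, Rpl35a, Rpl38, Rpl3l, Rps21, Rps27a, Rps27l, Rps27rt and Rps28. Of these, 8 had 0 counts in all 4 libraries: Rpl10l, Rpl26, Rpl31, Rpl38, Rps21, Rps27a, Rps27rt and Rps28. The limit that a count of 0 allows, 3 counts, is 0.146 to 0.178 CPM by library, and covers counting error only. Rpl38, whose loss of a copy disturbs axial patterning in the mouse and which has been studied for translation of Hox mRNAs, had 4 accessions, so the files say nothing of its level. Rps19, known for dark skin in mouse mutants and for Diamond-Blackfan anemia, had 9 accessions and 6, 4, 4 and 4 counts in WT libraries 1 and 2 and Lbx1Δ/Δ libraries 1 and 2. Rpl26 was the only core member with 1 accession that was not counted.

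**Figure D1:**
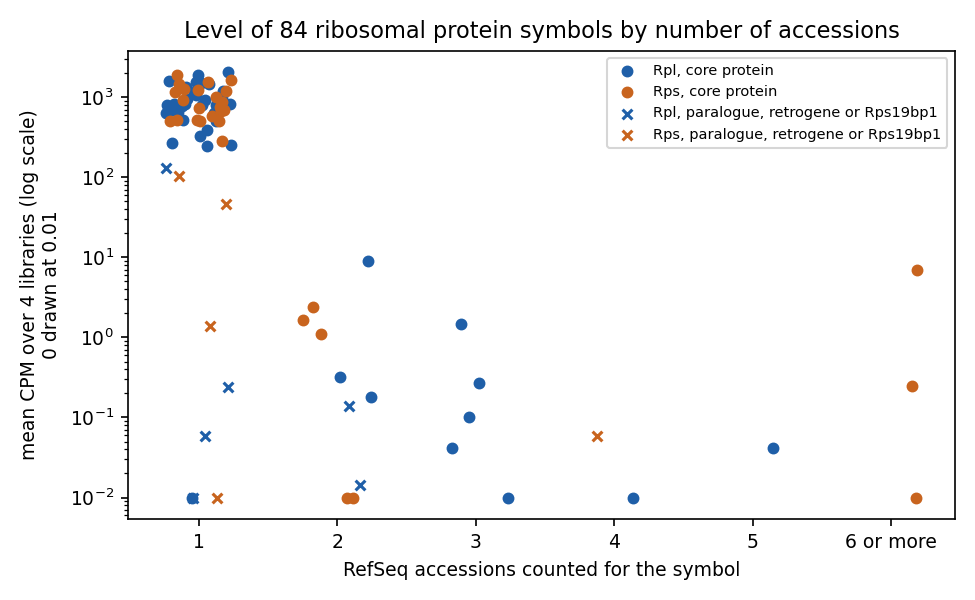
Mean CPM over 4 libraries (log axis, 0 drawn at 0.01) of the 84 members by the number of RefSeq accessions counted for the symbol. Points are genes; the cloud at the top left holds the 54 core members with 1 accession, from 244.8 to 2064 CPM, and no core member with several accessions is above 9.12 CPM.

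The 54 abundantly counted core members, 32 of the large and 22 of the small subunit, are the base of what follows. Their median level was 922 and 735 CPM in WT libraries 1 and 2, and 967 and 680 CPM in Lbx1Δ/Δ libraries 1 and 2. Both libraries numbered 1 were thus above both numbered 2. Rpl4, a large subunit protein lining the exit tunnel, had the highest mean CPM, with 2421 and 1823 CPM in WT and 2318 and 1695 CPM in Lbx1Δ/Δ. Rpl3, at the peptidyl transferase centre, had 2173 and 1713 CPM in WT and 2198 and 1544 CPM in Lbx1Δ/Δ. Rps2, at the mRNA entry site of the small subunit, had 2062 and 1612 CPM in WT and 2374 and 1637 CPM in Lbx1Δ/Δ. In each of these genes the groups WT and Lbx1Δ/Δ overlapped and the numbers did not.

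Rps6, the small subunit protein phosphorylated by S6 kinases, had 1924 and 1534 CPM in WT and 1908 and 1262 CPM in Lbx1Δ/Δ. Rpl7 had 1851 and 1460 CPM in WT and 1783 and 1240 CPM in Lbx1Δ/Δ. Rps4x, which lies on the X chromosome, had 1843 and 1434 CPM in WT and 1813 and 1133 CPM in Lbx1Δ/Δ. In all 3 genes both libraries numbered 2 were below both numbered 1, and the genotypes' ranges overlapped.

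Set per length, using the length of the matching GENCODE transcript for 52 of the 54 genes (383 to 2045 bases; for 2 the matching model was longer than 3000 bases and was not used), the mean levels lay between 317.5 and 1925 CPM per kilobase, a 6.06-fold range, with a median of 1029 CPM per kilobase. The quartiles were 692 and 1394 CPM per kilobase. Per length, Rps2, Rpl23a, Rps6, Rpl10 and Rpl41 had the highest levels (1925, 1902, 1887, 1867 and 1814 CPM per kilobase) and Rpl37, Rpl39 and Rps25 the lowest (317.5, 399.9 and 403 CPM per kilobase). In library 1 of WT, Rps2 was at 2066 and Rps6 at 2191 CPM per kilobase, the reverse of their order in the means, so these neighbours do not differ beyond their spread. The model lengths need not be those that were counted against.

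**Figure D2:**
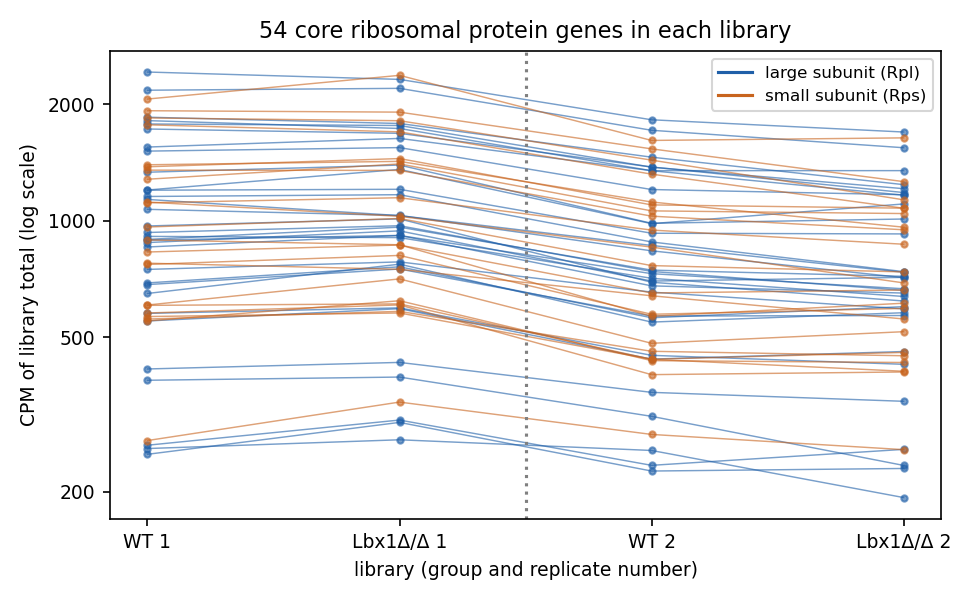
CPM of library total (log axis) of the 54 abundantly counted core members in each library, with a line per gene, coloured by subunit, and libraries numbered 1 to the left of the dotted line. Lines run nearly level between WT and Lbx1Δ/Δ of number 1 and step down to number 2, where the medians are 735 and 680 CPM against 922 and 967 CPM.

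The summed counts of all 84 members were 5.73% and 4.52% of the library in WT libraries 1 and 2, and 5.87% and 4.20% in Lbx1Δ/Δ libraries 1 and 2. By genotype the share was 5.12% ± 0.854 (SD, n = 2) in WT and 5.04% ± 1.18 (SD, n = 2) in Lbx1Δ/Δ, a difference of −0.0858 percentage points that was smaller than the spread between libraries (two-sided exact permutation test, p = 1). By number it was 5.80% ± 0.102 (SD, n = 2) in number 1 and 4.36% ± 0.224 (SD, n = 2) in number 2, a ratio of 0.752 (two-sided exact permutation test, p = 0.333, the smallest that 2 against 2 libraries allow). The ratio of library 2 to library 1 was 0.789 within WT and 0.716 within Lbx1Δ/Δ. Both subunits took part: the core large subunit genes summed to 3.38% and 2.68% in WT and 3.44% and 2.50% in Lbx1Δ/Δ, and the core small subunit genes to 2.32% and 1.82% in WT and 2.40% and 1.68% in Lbx1Δ/Δ. In pooled tissue, fewer cells rich in these mRNAs and less of them per cell cannot be told apart.

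**Figure D3:**
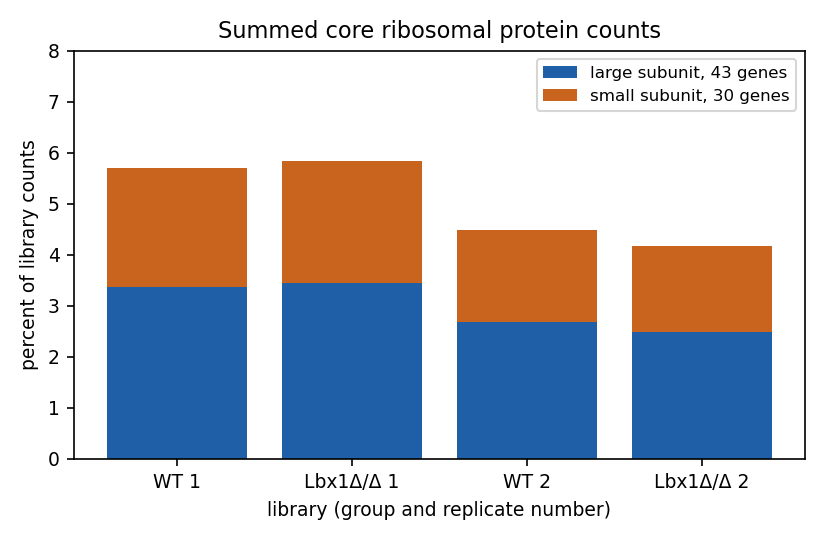
Summed counts of the 73 core members as a percent of the library total, stacked by subunit, in the 4 libraries. The bars of the libraries numbered 1 (5.70% in WT, 5.84% in Lbx1Δ/Δ) are taller than those numbered 2 (4.49% and 4.18%).

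Gene by gene, the ribosomal protein mRNAs were lower in the libraries numbered 2 than in those numbered 1, in both genotypes. Of the 64 members that passed the filter on low counts, each with 10 or more counts in every library, 46 were called lower in number 2 and 0 higher (edgeR quasi-likelihood test, two-sided, Benjamini-Hochberg adjusted p under 0.05 over 10757 genes). Of all tested genes 12.2% were called lower and 13.3% higher, so the members' count is above that background. The 46 called genes are all among the 54 abundantly counted core members, 25 of 32 of the large and 21 of 22 of the small subunit, and over all genes with a mean of at least 1000 counts 18.3% were called lower. The fitted log2 differences of those 54 ran from −0.61 to −0.20, with a median of −0.44 (a ratio of 0.740), while the median over all tested genes was 0.00021. The median was −0.41 in the large and −0.46 in the small subunit, and the SE of a single gene was 0.098 to 0.139.

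The calls rested on having both libraries of number 1: without WT library 1, or without Lbx1Δ/Δ library 1, 0 members were called, with medians over the tested members of −0.44 and −0.36 and smallest edgeR adjusted p-values of 0.106 and 0.0850. The calls over all genes were lost in the same fits, with 1 of 11276 and 6 of 11292 genes called, so the loss is not a trait of the members. The numbers are labels of replicates, and what else differs between them cannot be told apart from these differences.

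Rpl12, a protein of the stalk base that recruits elongation factors, had the lowest fitted value of the 54, with 969.8 and 1012 CPM in number 1 (WT, then Lbx1Δ/Δ) and 694 and 621 CPM in number 2 (log2 −0.61, SE 0.11, edgeR adjusted p = 0.00358). Rps12 had 893 and 867 CPM in number 1 and 567 and 613 CPM in number 2 (log2 −0.60, SE 0.10, edgeR adjusted p = 0.00293). In both genes each library of number 1 was above each of number 2, and the SD within a number was at most 51.7 CPM. Rps20, mutated in a mouse line with dark skin, had 578 and 607 CPM in number 1 and 401 and 407 CPM in number 2 (log2 −0.57, SE 0.099, edgeR adjusted p = 0.00322). Rps25, needed by several viral internal ribosome entry sites, had 605 and 610 CPM in number 1 and 439 and 409 CPM in number 2 (log2 −0.54, SE 0.10, edgeR adjusted p = 0.00475). For these 2 genes the SD within a number was 3.72 to 21.3 CPM.

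Some members are known from mouse mutants or from Diamond-Blackfan anemia, and their values are given for that reason alone. Rps7, whose mutants have skeletal defects and white spotting, was at 1350 ± 1.52 CPM (SD, n = 2) in number 1 and 988 ± 56.5 CPM (SD, n = 2) in number 2 (log2 −0.47, edgeR adjusted p = 0.00981). Rpl27a, mutated in the sooty foot ataxia line, was at 904 ± 18.0 CPM and 665 ± 20.2 CPM (SD, n = 2 each; log2 −0.46, edgeR adjusted p = 0.00918). Rpl24, mutated in the Belly spot and tail line, was at 766 ± 24.2 CPM and 624 ± 43.9 CPM (SD, n = 2 each) and did not pass the test (log2 −0.32, edgeR adjusted p = 0.0546). Of the 19 genes listed for Diamond-Blackfan anemia 13 were tested and 9 were called lower in number 2, with a median log2 difference of −0.36. All 19 are members, and their count is to be read beside the 46 of 64 tested members and the 12.2% of all tested genes, so it shows nothing particular to the disease genes. Rpl5 and Rpl11, which with 5S ribosomal RNA bind MDM2 when ribosome assembly is disturbed, had log2 differences of −0.52 (edgeR adjusted p = 0.00944) and −0.36 (edgeR adjusted p = 0.0285). The tested members Rps10, Rps24, Rps27 and Rps29 of that list were not called, and Rps19, Rps28, Rpl15, Rpl26, Rpl31 and Rpl35a had too few counts. Rps10, Rps24 and Rps27 are in the low group whose values are uncertain, with mean counts of 19.75, 126.8 and 29.25. Of the genes not called, only Rps29 was counted abundantly.

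The 8 abundantly counted core members that were not called by number were Rpl24, Rpl13a, Rpl36, Rpl37a, Rpl39, Rpl7a, Rpl37 and Rps29. All had lower fitted values in number 2, from −0.32 to −0.20. Rps29 was the exception to a drop in both genotypes, with 271 and 281 CPM in WT libraries 1 and 2 and 341 and 257 CPM in Lbx1Δ/Δ libraries 1 and 2. Rpl39, a small protein of the exit tunnel, had 258 and 255 CPM in WT and 272 and 193 CPM in Lbx1Δ/Δ. In both genes the larger step was within Lbx1Δ/Δ. Several of the 8 have short transcripts, and across the 52 genes with a length the log2 difference between numbers had Pearson's r = −0.42 with log2 length, as a description over genes of the same 4 libraries. It had r = −0.44 with log2 mean CPM and r = −0.17 with log2 mean CPM per kilobase. Length and mean CPM had r = 0.56 with each other, so length and level cannot be told apart here. The 26 shorter genes had a median difference of −0.37 and the 26 longer a median of −0.46.

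The medians of members with and without a pyrimidine run lay close together, and their difference was not tested. The 30 genes with a run of at least 8 bases in the promoter table had a median log2 difference of −0.44, with 25 called lower. The 8 without had a median of −0.40, with 7 called lower. Of all tested genes 12.2% were called lower. Rpl7a, with the longest run printed above, was not called (log2 −0.26, edgeR adjusted p = 0.0863). Rps3a1, with no run of 3 or more at its start, was called lower (log2 −0.55, edgeR adjusted p = 0.0102). Both genes were chosen after seeing the data, and nothing is concluded from them.

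**Figure D4:**
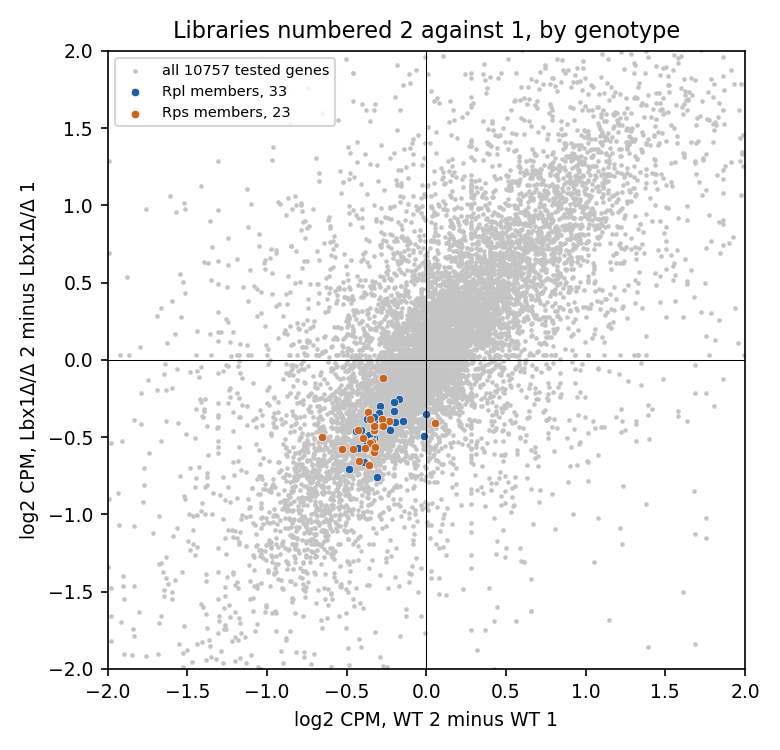
Difference in log2 CPM between libraries numbered 2 and 1 within WT (x axis) and within Lbx1Δ/Δ (y axis), with 10757 tested genes in grey (487 lie outside the axes) and the 56 members with a mean of at least 1000 counts in colour. The members lie below 0 on both axes, with medians of −0.33 and −0.46, except for Rps29, which is above 0 within WT.

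Within WT, 53 of the 54 core members were lower in library 2, with a median log2 difference of −0.33, and within Lbx1Δ/Δ 54 of 54 were lower, with a median of −0.46. The medians over all tested genes were 0.0074 and 0.031. In 53 of the 54 both libraries of number 2 were below both of number 1, against 31.9% of all tested genes and 39.9% of those with a mean of at least 1000 counts. The drop was larger within Lbx1Δ/Δ than within WT in 52 of the 54 genes. The share of all tested genes with this order was not counted, so no background stands beside that number. That difference between genotypes was not tested, since a fit with an interaction leaves no residual degrees of freedom among 4 libraries.

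Of the paralogues with usable counts, neither was called. Rpl36al, a close paralogue of Rpl36a, had 133 CPM in both WT libraries and 143 and 112 CPM in Lbx1Δ/Δ (log2 by number −0.19, SE 0.12, edgeR adjusted p = 0.260). Rpl36a had 388 and 313 CPM in WT and 395 and 234 CPM in Lbx1Δ/Δ (log2 −0.54, SE 0.14, edgeR adjusted p = 0.0195). Rps4l had 114 and 94.2 CPM in WT and 110 and 102 CPM in Lbx1Δ/Δ (log2 −0.21, SE 0.10, edgeR adjusted p = 0.146), against −0.53 (SE 0.13, edgeR adjusted p = 0.0152) for Rps4x. The difference within each pair was not tested, and reads of near-identical copies, including the many processed pseudogenes of this family, cannot be told apart in these counts. Rpl7l1, a relative of Rpl7 that the naming rule leaves out, was called lower (log2 −0.50, edgeR adjusted p = 0.0170), while Rps19bp1 had 42.9 and 47.7 CPM in WT and 48.1 and 45.0 CPM in Lbx1Δ/Δ (log2 0.010, SE 0.14). The other paralogue symbols, Rpl3l, Rpl10l, Rpl39l, Rpl22l1 and Rps27l, had 17 counts or fewer in total. The retrogene Rps23rg1 had 31 and 14 counts in WT and 40 and 15 in Lbx1Δ/Δ (log2 by number −1.16, SE 0.46, edgeR adjusted p = 0.0914).

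Lbx1Δ/Δ and WT did not differ detectably in any member. In that comparison 0 of the 64 tested members passed the edgeR test and 0 had an unadjusted p below 0.05 (0% and 0.511% of all 10757 genes), and DESeq2 also called 0 with 0 at an unadjusted p below 0.05. Their fitted differences were above 0 in 32 and below 0 in 32; the median was −0.0015 on the log2 scale, beside −0.0026 over all tested genes. Among the 56 with a mean of at least 1000 counts, the differences ran from −0.21 to 0.17 with SE of 0.178 to 0.326, so changes of that size were not detectable here. Because each genotype holds both numbers, this SE includes the difference between them. The groups did not overlap in 1 tested member, Rps15, against 11.3% of all tested genes with both Lbx1Δ/Δ libraries above both WT. In 0 members were both below, against 9.31%.

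Rpl37 had the smallest p, with 264 and 234 CPM in WT and 306 and 257 CPM in Lbx1Δ/Δ (log2 0.17, SE 0.18, unadjusted p = 0.396 and adjusted p = 0.9998 by edgeR). Rpl13a had 1201 and 983 CPM in WT and 1357 and 1105 CPM in Lbx1Δ/Δ (log2 0.16, SE 0.22). The lower side was led by Rps26, with 1118 and 856 CPM in WT and 1027 and 692 CPM in Lbx1Δ/Δ (log2 −0.21, SE 0.28), and Rpl21, with 1136 and 864 CPM and 1031 and 736 CPM (log2 −0.19, SE 0.27). In each of these 4 genes the WT and Lbx1Δ/Δ ranges overlapped. Rpl36 (log2 0.15, SE 0.20), Rpl39 (log2 −0.15, SE 0.22) and Rps24 (log2 −0.19, SE 0.30, with several accessions) were next, with differences smaller than their SE. Rps15, uncertain because it has several accessions, had 46 and 35 counts in WT and 40 and 52 in Lbx1Δ/Δ (2.24, 2.07, 2.32 and 3.09 CPM).

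With the numbers taken apart, 40 of the 56 members were higher in Lbx1Δ/Δ within number 1 and 18 within number 2, with medians of 0.057 and −0.077 on the log2 scale. Of them 16 were higher within both numbers, 14 lower within both, and 24 higher in number 1 and lower in number 2. The medians over all tested genes were 0.0034 within number 1 and 0.0081 within number 2. The members' shift between numbers is the same contrast of 4 libraries as their larger drop within Lbx1Δ/Δ, and is no separate result. Rpl36a went from 0.028 within number 1 to −0.42 within number 2, and Rps29 from 0.33 to −0.13. The median over the tested members turned with the libraries kept: it was 0.18 and −0.15 without WT libraries 1 and 2, and −0.24 and 0.19 without Lbx1Δ/Δ libraries 1 and 2.

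**Figure D5:**
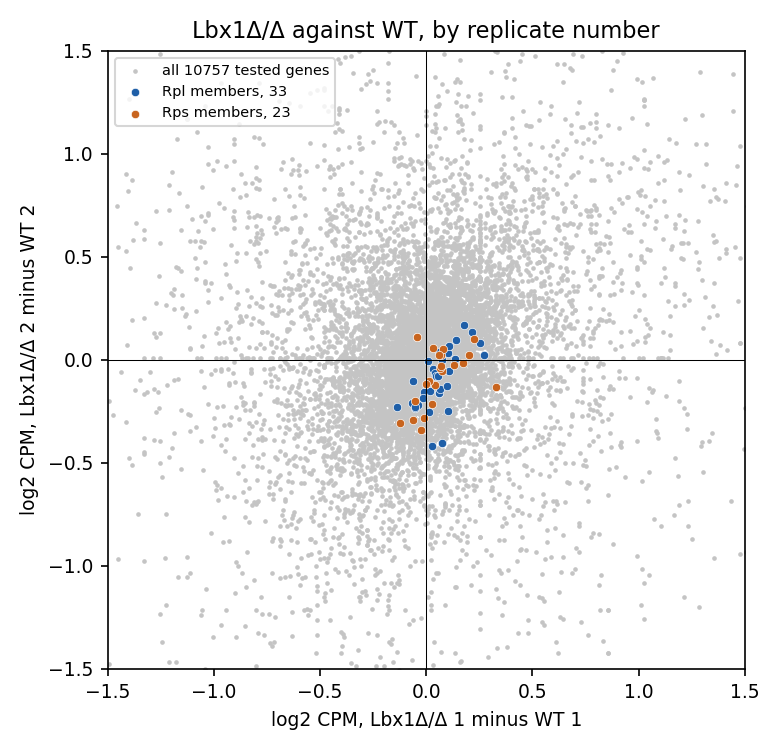
Difference in log2 CPM between Lbx1Δ/Δ and WT within number 1 (x axis) and within number 2 (y axis), with 10757 tested genes in grey (416 lie outside the axes) and the 56 members with a mean of at least 1000 counts in colour. The members centre near 0, with medians of 0.057 and −0.077.

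Other genes of the ribosome and of translation were read from lists, each count beside the 12.2% of all tested genes called lower and the 13.3% called higher. Among the ribosomal proteins whose names lack a digit, Rplp0, Rplp1, Rpsa and Rack1 were called lower in number 2. Rplp0, the stalk protein that anchors P1 and P2, had 2745 and 2322 CPM in WT and 3015 and 2125 CPM in Lbx1Δ/Δ (log2 −0.39, edgeR adjusted p = 0.0260), and Rpsa had a log2 difference of −0.51 (edgeR adjusted p = 0.00636). Among 15 tested elongation factors and other genes with TOP mRNAs, 4 were lower (Eef1b2, Pabpc1, Naca and Eif3e), 1 was higher (Eef1d) and 10 were not called, with a median of −0.27. Naca had only 6.53 to 29.6 CPM and Eef1d 18.0 to 51.5 CPM, beside 560 to 856 CPM for Eef1b2. The calls of Naca and Eef1d are therefore uncertain. Eef2, the translocase, had 4921 and 4976 CPM in WT and 5055 and 5399 CPM in Lbx1Δ/Δ (log2 0.037). Of 19 tested initiation factors 7 were called lower and 0 higher, with a median of −0.18, among them Eif2s1 (log2 −0.47) and Eif3m (log2 −0.47).

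Among nucleolar factors that build ribosomes, 6 of 21 tested were lower in number 2, 0 were higher, and the median was −0.21. Of the 6, Npm1 was counted at only 11.4 to 21.9 CPM, so its call is uncertain. That value is not read as a level of its mRNA. Ncl, nucleolin, had 2010 and 1433 CPM in WT and 1783 and 1247 CPM in Lbx1Δ/Δ (log2 −0.52, edgeR adjusted p = 0.0111). Fbl, the methyltransferase of ribosomal RNA, had a log2 difference of −0.51 (edgeR adjusted p = 0.00513), and Nop58, its partner in the same particles, one of −0.59 (edgeR adjusted p = 0.00711). Of 10 tested genes of RNA polymerase I and its factors, 2 were lower, Polr1a (log2 −0.48) and Polr1d (log2 −0.38). Of 61 tested mitochondrial ribosomal protein genes, 6 were lower, 1 was higher (Mrps10, with 34 counts or fewer in each library) and 54 were not called. The median was −0.23, and the share called lower was not above the 12.2% of all tested genes. For the 10 genes of RNA polymerase I, too, 2 calls are too few to set apart from that share.

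Of the 8 tested regulators of TOP mRNAs and mTORC1, Eif4ebp1, an inhibitor of cap-dependent initiation, was called lower (log2 −0.73, edgeR adjusted p = 0.00938), and Larp1 had 329 and 344 CPM in WT and 330 and 333 CPM in Lbx1Δ/Δ. Of 7 tested Myc family genes and partners, Mnt and Mxd1 were higher (log2 0.54 and 0.41) and Mxd3 was lower (log2 −0.54). Myc itself had 0 counts in every library, which is not read as absence of its mRNA. Mycn had 119 CPM in both WT libraries and 139 and 125 CPM in Lbx1Δ/Δ (log2 −0.10). Of the 8 tested genes of the p53 list, which holds Trp53 as well as targets, 0 were called by number (edgeR adjusted p under 0.05). Bbc3 had the smallest edgeR adjusted p, 0.0578. Cdkn1a was at 0, Mdm2 had 2 counts in Lbx1Δ/Δ library 2 and 0 elsewhere, and Trp53inp1 had 5 counts or fewer in each library. Trp53 had 12 counts or fewer in each. Cdkn1a, Mdm2, Trp53inp1 and Trp53 were thus not usably counted, and the list does not show whether they changed. Ccng1, with 1714 counts or more in each library, had a log2 difference by number of −0.011 (SE 0.10, edgeR adjusted p = 0.955). Bax, with 1358 counts or more, had one of 0.12 (SE 0.13, edgeR adjusted p = 0.530). The median over the 8 tested genes was 0.13. By genotype 0 genes of these lists were called, as for all genes.

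Markers of cell types also differed between numbers. Their calls are to be read beside the 12.2% of all tested genes called lower and the 13.3% called higher. Lists with 1 or 2 calls hold too few to set apart from those shares. The 4 tested neuron markers of 7 listed were all called higher in number 2, with summed CPM over the list of 3148 and 3641 in number 1 and 5831 and 6874 in number 2, while Elavl4, Dcx and Snap25 had 13 counts or fewer in each library. Those of neural progenitors summed to 4626 and 4722 in number 1 and 5087 and 5198 in number 2, with 1 of 5 tested, Fabp7, called higher and Pax6 at 0. Embryonic blood markers summed to 8126 and 5813 in number 1 and 2754 and 2557 in number 2, with 4 of 4 tested called lower and Alas2 at 0. Skeletal muscle markers summed to 853 and 731 in number 1 and 402 and 127 in number 2, with 4 of 4 tested called lower, Tnnt1 at 0 and Acta1 at 5 counts or fewer. Mesenchyme and cartilage (2 of 7 tested called lower) summed to 6195 and 4405 in number 1 and 4705 and 4188 in number 2, and surface ectoderm (2 of 5 called lower) to 130 and 97.2 in number 1 and 87.9 and 54.2 in number 2. Macrophage markers summed to 45.7 to 55.5 and endothelial markers to 291.7 to 339 over the 4 libraries; 0 of 2 tested were called in each list, Ptprc had 10 counts in Lbx1Δ/Δ library 2 and 0 elsewhere, and Pecam1 was at 0. Over all genes, 61.3% of those with several accessions and 41.3% of those with 1 had fewer than 10 counts. Marker counts at or near 0 are therefore not read as absence of the mRNA. The part of these cell types in the lower ribosomal protein levels was not tested.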

How the data were processed

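The authors deposited unnormalized read counts, 1 whole number per RefSeq accession and library. TopHat2 2.1.1, featureCounts 4.6.0.1, edgeR 3.4.3 and build mm9 are named, per the submitters' processing notes; the annotation, strand setting and handling of reads that match several places are not given in the labels. Of 41411 accessions, 41218 were named from a RefSeq table of GRCm38 and 97 from GENCODE, and 96 kept their accession as a name; named accessions held 99.4% to 99.7% of counts. Counts were summed per symbol. Genes passing filterByExpr (minimum count 10, minimum total 15) were scaled by TMM and tested with glmQLFit and glmQLFTest (edgeR 4.0.16, R 4.3.3), with Benjamini-Hochberg adjustment at 0.05, once for genotype and once for replicate number, each with no covariate. Printed CPM are of the library total. Differences within a genotype or number are log2 CPM with 0.5 counts added. The fits were also run on simulated counts in which only the tested label changed genes. The simulated genotype data held no difference between numbers, so that run does not bear on how this difference affects the genotype fit.

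The members, gene lists and the rule for named genes (highest levels, smallest p per direction, paralogue pairs, uncounted members, known mouse mutants, up to 4 genes per other list) were chosen with earlier results of these data known. The mean of 1000 counts, the length limit of 3000 bases and the pyrimidine run were chosen after seeing the data, as were Rps29, Rps23rg1, Rpl7a, Rps3a1, Eef2, Larp1 and Mycn, the genes at the ends of the levels per length, and the printed sequences. Not every gene of the lists is reported here. Alternatives were RLE and upper-quartile scaling, the library total alone, DESeq2 1.42.0, other filters, single-accession genes, genotype as a covariate, the replicate number as a block, each library left out in turn, the named total as denominator, and the members without Rps19bp1, retrogenes and -like paralogues. Labels do not say that libraries of a group came from separate litters, so p-values reflect only how far these samples vary, which may be technical.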

Additional observations from a re-analysis of the deposited data

Results flagged for a closer look

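The summed share of the ribosomal protein genes went opposite ways in the numbered pairs: Lbx1Δ/Δ minus WT was 0.145 percentage points of the library between the libraries numbered 1 and −0.316 percentage points between those numbered 2. Each pair is 1 library against 1, so the difference between them was not tested. It restates, in summed counts, the larger drop within Lbx1Δ/Δ described above.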

How the results depend on the processing

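By genotype, 0 members were called under any of the 12 alternatives run, while the count over all genes went from 0 to 92 (29 higher, 63 lower) with the replicate block, where the smallest adjusted p of a member was 0.371. The labels do not say that equal numbers pair the libraries. Deviations from the genotype means correlated at 0.623 between libraries of equal number. With 2 libraries per group the value between crossed numbers, −0.623, must be the negative of this, so it adds nothing. The members' median log2 difference by genotype ranged from −0.243 to 0.190 when a library was left out. By number, the count of members called lower was 44 to 52 under the alternatives that kept both libraries of number 1, and the median stayed between −0.446 and −0.354 under all 14 alternatives, 1 of them chosen after seeing the data. Leaving out single libraries gave 0 to 52 called members and 1 to 3917 called genes, against 46 and 2739; the low ends came without WT library 1 or Lbx1Δ/Δ library 1, each leaving a lone library of number 1 that is assumed to vary like the others. Other alternatives gave 2563 to 3833 called genes. The share of library counts by genotype moved by less than its spread under all 7 alternatives, from −0.920 to 0.749 percentage points with single libraries left out. The abundant core members had means of at least 4399 counts; whether depth limits them was not tested. Genes with several accessions had low counts, and the cause was not tested.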
